A study of Mus musculus with 8 samples.

Results

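Chemokines are small secreted proteins that draw migrating cells along a gradient, and the genes described here are the mouse chemokine ligands together with the atypical chemokine receptors. They were chosen by symbol: protein-coding genes named Ccl, Cxcl or Ackr followed by a digit, plus Cx3cl1 and Xcl1. The rule found 41 genes among the 55401 in the deposited table, 37 ligands and 4 atypical receptors. The 3 other genes whose names fit but whose annotated type does not are Ccl19-ps1, Ccl19-ps3 and Cxcl11.

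RNA was sequenced from 8 libraries labelled airway cells, taken at day 10 after tamoxifen. The 4 mutant libraries had the genotype Scgb1a1cre; Cdh1F/F and the 4 control libraries Scgb1a1cre; Cdh1F/+. Both groups therefore carried the Cre recombinase and had tamoxifen. The controls had 1 floxed and 1 unfloxed allele of Cdh1, the gene of the adhesion protein E-cadherin. Cre could thus also act on 1 allele in the controls. Scgb1a1 encodes the abundant secretory protein of club cells, which line the small airways, so recombination was directed at club cells and not at all airway cells. The series set out to ask which genes change in airway cell types when club cells lose Cdh1. According to the series, cells were depleted of leukocytes and endothelium, enriched by EPCAM and sorted by GFP. The labels give neither the GFP fraction of a library nor the age, sex or strain of the mice. The labels give every library a distinct number of unstated meaning, and none says in words that each is its own animal, so p-values reflect library-to-library spread, which may be technical.

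Chemokines act on G protein-coupled receptors of leukocytes and other cells. CXC ligands with an ELR motif before their first cysteines act on CXCR1 and CXCR2 of neutrophils, while many CC ligands act on monocytes, macrophages, eosinophils, dendritic cells and lymphocytes. Atypical receptors bind chemokines without the usual signal and take them up or carry them across cells. In the lung, epithelium, macrophages, fibroblasts and endothelium each release a different set, many of them low at rest and induced by inflammatory cytokines.

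Total counts ran from 16981201 to 21673654 in mutant libraries and from 15111663 to 20454930 in control libraries, so that the floor of 3 counts below which a gene with no count may lie corresponded to 0.138 to 0.199 CPM of the total count, for counting error only. All CPM values given for genes use library sizes scaled by TMM. Cdh1 had 406, 410, 401 and 396 CPM in mutant libraries 1 to 4, against 322, 428, 388 and 395 CPM in controls 1 to 4, and did not pass edgeR's quasi-likelihood test (log2 fold change 0.07 ± 0.09 SE; Benjamini-Hochberg adjusted p = 0.648). The count covers the whole gene and many cell types, so it gave no check of the labels, and the groups are named as labelled. Every marker list was detected in both groups, and only 1 platelet marker had 0 counts in all libraries. The summed markers of epithelium lay at 847.8 to 916.1 CPM in mutant libraries and 614.1 to 729.8 CPM in controls, and those of macrophages at 1328 to 1606 CPM in mutant libraries and 941.2 to 1121 CPM in controls. Pan-leukocyte markers lay at 877.4 to 987.7 CPM in mutant libraries and 626.2 to 1438 CPM in controls, and vascular endothelial markers at 3972 to 4442 CPM in mutant libraries and 4869 to 6134 CPM in controls. Leukocyte and endothelial transcripts were thus present in libraries whose series text describes their depletion. On the first principal component of all genes, which held 48.8% of the variance, the mutant libraries lay between -31.6 and -24.5 and controls 1 to 4 at 4.1, 46.5, 53.7 and 9.8, so controls 2 and 3 stood apart. In bulk libraries, fewer cells of a type and less RNA per cell cannot be told apart.

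Of the 41 genes, 36 had enough counts to be tested. Of these, 7 were higher in mutant libraries at an adjusted p under 0.05 and 0 were lower, by edgeR with p-values adjusted over all 16964 genes tested. Over all genes, 7.81% were called, 5.45% higher and 2.36% lower. The 7 were the ligands Cxcl15, Cxcl17, Cxcl5, Ccl20, Ccl6, Ccl8 and Cxcl13. The median log2 fold change was 0.31 over the 36 tested members and -0.01 over all genes tested. At an unadjusted p under 0.05 in the edgeR test, 14 members were higher and 0 lower, with no share of all genes at hand for comparison. DESeq2 called 8 higher and 0 lower, against 7.88% and 5.54% of all genes. Limma-voom with quality weights called 16 higher and 2 lower, against 16.4% and 14.1% of all genes. The 41 genes together took 0.266% to 0.283% of all counts in mutant libraries and 0.187% to 0.222% in controls, and Cxcl15 alone made up 51.4% to 55.4% of these counts in mutant libraries and 40.5% to 50.7% in controls.

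**Figure D1:**
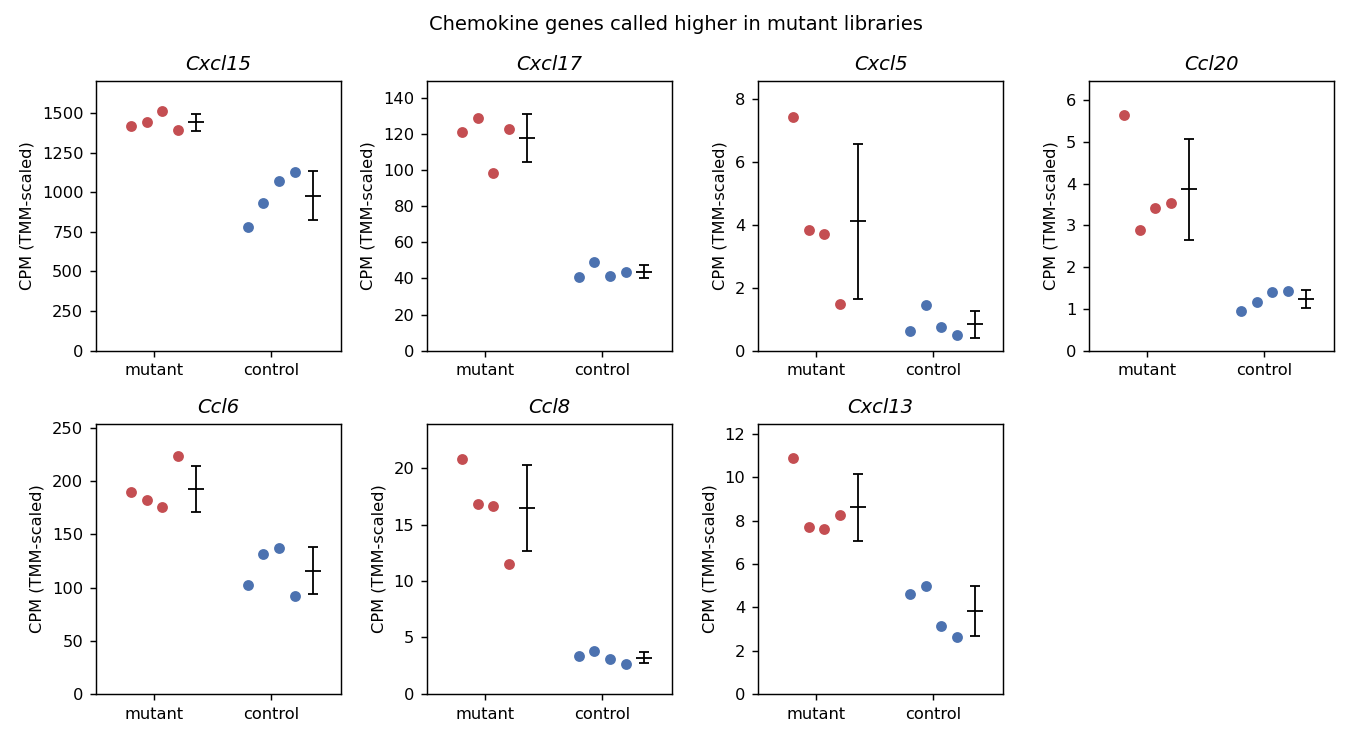
CPM (TMM-scaled) of the 7 called chemokine genes in each library, mutant libraries on the left and controls on the right of each panel, with the mean and SD of 4 libraries beside the points. The mutant points lie above every control point in each panel, by the narrowest margin for Cxcl5, whose lowest mutant library (1.49 CPM) sits next to its highest control (1.45 CPM).

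The stretches of 120 bases that precede the annotated start sites of 3 called ligands and of the 3 neutrophil-directed ligands Cxcl1, Cxcl2 and Cxcl3 are shown because they differ in the letters that core promoters and NF-kB sites use. All are on the plus strand of GRCm38.p6, from RefSeq, 5′ to 3′: Ccl20 at chr1:83116646-83116765, Cxcl15 at chr5:90794414-90794533, Ccl8 at chr11:82115065-82115184, Cxcl1 at chr5:90891125-90891244, Cxcl2 at chr5:90903779-90903898 and Cxcl3 at chr5:90785981-90786100. Capitals mark matches to the NF-kB-type letters (GGGA, any 4 bases, CC) and to the TATA letters TATAAA. In Cxcl1, Cxcl2 and Cxcl3 the run of 11 capitals joins matches on both strands that overlap.
Ccl20: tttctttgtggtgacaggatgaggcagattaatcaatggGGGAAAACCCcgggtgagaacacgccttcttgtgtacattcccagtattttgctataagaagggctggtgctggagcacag
Cxcl15: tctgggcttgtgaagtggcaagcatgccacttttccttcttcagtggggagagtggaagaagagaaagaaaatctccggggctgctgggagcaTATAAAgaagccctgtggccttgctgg
Ccl8: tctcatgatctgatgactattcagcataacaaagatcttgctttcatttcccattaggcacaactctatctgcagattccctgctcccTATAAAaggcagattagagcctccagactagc
Cxcl1: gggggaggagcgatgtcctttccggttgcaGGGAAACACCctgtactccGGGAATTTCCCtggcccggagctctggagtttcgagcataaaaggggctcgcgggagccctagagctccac
Cxcl2: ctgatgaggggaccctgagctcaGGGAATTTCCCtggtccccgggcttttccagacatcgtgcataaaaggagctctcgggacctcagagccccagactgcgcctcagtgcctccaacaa
Cxcl3: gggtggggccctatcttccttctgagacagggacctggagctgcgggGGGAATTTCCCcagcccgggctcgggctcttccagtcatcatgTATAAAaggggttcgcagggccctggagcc
The NF-kB-type letters began at position -81 in Ccl20, counted with the start base as 0, at -97 in Cxcl2, at -73 in Cxcl3, and at both -90 and -71 in Cxcl1. TATAAA began at -27 in Cxcl15, at -32 in Ccl8 and at -30 in Cxcl3. RefSeq promoter windows of 250 bases before to 50 after the start were given for 31 of the 41 genes, 37 windows in all. The NF-kB-type letters, searched on both strands, stood in 16 of the 37 windows, against 20.7% of all 32851 windows. These windows belonged to 13 of the 31 genes. Some windows of Ccl27a and of Ccl27b overlap and hold the same match, so windows are not independent. TATAAA, searched likewise, stood in 12 of 37, against 13.6% of all windows. Of the called ligands, Ccl20 and Cxcl13 held the first and Ccl8, Cxcl13 and Cxcl15 the second. Cxcl17 and Cxcl5 had no entry. A match is a run of letters and not a measured site.

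Among ligands with an ELR motif, Cxcl15 and Cxcl5 rose, and Cxcl1, Cxcl2 and Cxcl3 did not pass the test. Cxcl15, known as lungkine, a mouse ligand made by lung epithelium that draws neutrophils, had 1420, 1440, 1510 and 1390 CPM in mutant libraries 1 to 4, against 782, 934, 1070 and 1130 CPM in controls 1 to 4. Every mutant library was above every control, and the controls spread more widely than the mutant libraries. The means were 1440 ± 48.3 CPM in mutant libraries and 979 ± 155 CPM in controls (SD, n = 4 each), a rise of 1.47-fold (95% interval 1.23 to 1.76; adjusted p = 0.0182 by edgeR). By FPKM, the CPM divided by exon length, which allows levels of different genes to be compared, Cxcl15 was at 677 in mutant libraries and 460 in controls, the highest of all 41 genes in both groups. Its call was lost, at adjusted p values up to 0.057, without mutant 1, mutant 2, mutant 3 or control 2.

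Cxcl5, which alveolar epithelium makes on stimulation and which acts on CXCR2, had 7.43, 3.82, 3.7 and 1.49 CPM in mutant libraries 1 to 4, against 0.626, 1.45, 0.764 and 0.512 CPM in controls 1 to 4. Mutant 1 was the highest and mutant 4 nearly touched the highest control. The rise was 4.98-fold (95% interval 2.28 to 10.9; adjusted p = 0.0245 by edgeR), over a mean of 4.11 ± 2.46 CPM in mutant libraries and 0.837 ± 0.419 CPM in controls. Its call was lost without mutant 1, mutant 2 or control 3, and without controls 2 and 3 together (adjusted p = 0.0695). Cxcl1, Cxcl2 and Cxcl3, closely related neutrophil attractants, had log2 fold changes of 1.05 ± 0.60, 0.27 ± 0.68 and 0.92 ± 0.51 (SE). Reads that match more than 1 of these paralogs went uncounted, so their levels are uncertain.

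Among the other CXC ligands, Cxcl17 and Cxcl13 rose. Cxcl17 is a ligand of mucosal surfaces that attracts myeloid cells and whose receptor is unsettled. It had 121, 129, 98.5 and 123 CPM in mutant libraries 1 to 4, against 41.1, 49, 41.6 and 43.4 CPM in controls 1 to 4. The groups were far apart and each varied little. It averaged 118 ± 13.4 CPM in mutant libraries and 43.8 ± 3.65 CPM in controls (SD, n = 4 each), 2.7-fold higher (95% interval 2.31 to 3.14; adjusted p = 4.89e-05 by edgeR), the lowest p of the 36. Per length, Cxcl17 reached 155 FPKM in mutant libraries and 57.5 FPKM in controls.

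Cxcl13, the ligand of CXCR5 that gathers B cells in lymphoid follicles and is mostly made by stromal cells, had 10.9, 7.69, 7.62 and 8.24 CPM in mutant libraries 1 to 4, against 4.62, 4.96, 3.12 and 2.61 CPM in controls 1 to 4. All mutant libraries were above all controls. The rise was 2.26-fold (95% interval 1.59 to 3.2; adjusted p = 0.0125 by edgeR). Summed B cell markers overlapped between the groups, at 53.87 to 88.67 CPM in mutant libraries and 37.68 to 93.81 CPM in controls.

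The remaining ligands of this group did not pass the test. Cxcl16, a membrane-bound ligand of CXCR6 that also takes up oxidised lipids, had 98.7, 95.7, 96.5 and 98.9 CPM in mutant libraries 1 to 4, against 91.8, 77.8, 82.2 and 84.8 CPM in controls 1 to 4. Its groups did not overlap, but the ratio was only 1.16 (95% interval 1.04 to 1.28; adjusted p = 0.0841 by edgeR). The groups did not overlap, with mutant libraries above, for 8 of the 36 tested members, which are the 7 called ligands and Cxcl16, against 9.75% of all genes tested. They did not overlap with mutant libraries below for 0 members, against 7.07% of all genes. In the annotation, 18.3% of the exon length of Cxcl16 overlaps Zmynd15, and reads there were not counted.

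Cxcl12, which stromal cells and endothelium make to hold CXCR4-bearing cells, had 341, 264, 318 and 344 CPM in mutant libraries 1 to 4, against 294, 312, 359 and 371 CPM in controls 1 to 4. The groups overlapped throughout, and the interval of the ratio ran from 0.8 to 1.12 (adjusted p = 0.701 by edgeR). Cxcl14, a ligand of epithelium and fibroblasts, had 95.6, 79.3, 91.4 and 87.1 CPM in mutant libraries 1 to 4, against 101, 57.9, 52 and 102 CPM in controls 1 to 4. Controls 1 and 4 were above the mutant libraries and controls 2 and 3 below them, and the ratio had an interval of 0.805 to 1.57 (adjusted p = 0.654 by edgeR).

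Of the 4 CC ligands directed at monocytes, Ccl8 rose and Ccl2, Ccl7 and Ccl12 did not pass the test. Ccl8, which in the mouse acts on CCR8 and is made by tissue macrophages among other cells, had 20.8, 16.8, 16.6 and 11.5 CPM in mutant libraries 1 to 4, against 3.32, 3.79, 3.06 and 2.61 CPM in controls 1 to 4. The lowest mutant library was far above the highest control. The means were 16.4 ± 3.82 CPM in mutant libraries and 3.2 ± 0.492 CPM in controls (SD, n = 4 each), a rise of 5.14-fold (95% interval 3.78 to 6.99; adjusted p = 1.39e-04 by edgeR). It was the greatest fold change among the 7 called ligands.

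Of the 5 CC ligands of myeloid cells, Ccl6 rose and Ccl3, Ccl4, Ccl5 and Ccl9 did not pass the test. Ccl6, a mouse ligand of CCR1 that lung macrophages express, had 190, 182, 176 and 224 CPM in mutant libraries 1 to 4, against 102, 132, 137 and 92.2 CPM in controls 1 to 4. No control reached the lowest mutant library. The rise was 1.67-fold (95% interval 1.35 to 2.06; adjusted p = 0.011 by edgeR), and per length Ccl6 lay at 108 FPKM in mutant libraries and 64.7 FPKM in controls. Ccl9, a neighbouring mouse ligand of CCR1, had 36.1, 26.4, 25.9 and 27.7 CPM in mutant libraries 1 to 4, against 46.7, 24.3, 20.4 and 13.9 CPM in controls 1 to 4. Its controls lay on both sides of the mutant libraries, with a ratio interval of 0.672 to 1.8 (adjusted p = 0.821 by edgeR). Ccl5, a ligand released by T and NK cells and by stimulated epithelium, had 20.5, 19.8, 18.8 and 18.3 CPM in mutant libraries 1 to 4, against 33.9, 13.8, 14 and 26.7 CPM in controls 1 to 4. Controls 1 and 4 were again above and controls 2 and 3 below the mutant libraries (ratio interval 0.573 to 1.33; adjusted p = 0.683 by edgeR).

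Of the tested ligands of CCR4 and CCR6, Ccl20 rose and Ccl17 and Ccl22 did not pass the test. Of the ligands of CCR8, Ccl8 is described above and Ccl1 had too few counts to be tested. Ccl20, the epithelial ligand of CCR6 that draws dendritic cells and some T cells, had 5.64, 2.89, 3.42 and 3.53 CPM in mutant libraries 1 to 4, against 0.963, 1.17, 1.41 and 1.43 CPM in controls 1 to 4. The lowest mutant library was above the highest control, and mutant 1 was the highest. The rise was 3.1-fold (95% interval 2.09 to 4.6; adjusted p = 0.00471 by edgeR), at 2.72 FPKM in mutant libraries and 0.876 FPKM in controls. Ccl22, a ligand of CCR4 made by dendritic cells and macrophages, had 24.2, 24, 21.9 and 16.4 CPM in mutant libraries 1 to 4, against 30.2, 17.6, 14.3 and 16.7 CPM in controls 1 to 4. Those groups overlapped (ratio interval 0.766 to 1.56; adjusted p = 0.759 by edgeR), and so did those of Ccl17, its neighbour gene and the other ligand of CCR4 (log2 fold change 0.29 ± 0.33 SE).

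The eosinophil-directed ligands were above all controls in mutants 1 and 2 only, and gave no call. Ccl24, an eotaxin of macrophages, had 12, 2.78, 1.23 and 0.362 CPM in mutant libraries 1 to 4, against 1.3, 0.62, 0.47 and 0.615 CPM in controls 1 to 4. Mutant 1 was far above the rest and mutant 4 was below every control, so that the ratio of 5.26 had an interval of 1.23 to 22.4 (adjusted p = 0.146 by edgeR). Ccl11, an eotaxin of fibroblasts and smooth muscle, had 21.5, 12.5, 4.76 and 5.12 CPM in mutant libraries 1 to 4, against 5.59, 5.58, 5.06 and 3.89 CPM in controls 1 to 4, with mutants 1 and 2 above all controls and mutants 3 and 4 among them. Both passed an unadjusted p of 0.05 in the same test, and DESeq2 and limma-voom called 0 of the 2.

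The lymphoid organ ligands, the mucosal and skin ligands and Cx3cl1 gave 0 calls among 6 genes tested. Ccl21a, the ligand of CCR7 made by lymphatic endothelium, had 44.6, 62.6, 45 and 58 CPM in mutant libraries 1 to 4, against 36.1, 41.6, 39 and 49.6 CPM in controls 1 to 4. Only control 4 reached into the range of the mutant libraries (ratio interval 1.02 to 1.56; adjusted p = 0.161 by edgeR). Cx3cl1, a membrane-bound ligand of CX3CR1 on epithelium and endothelium, had 39.9, 40.7, 44.7 and 51.1 CPM in mutant libraries 1 to 4, against 53.6, 42.4, 35.4 and 71.3 CPM in controls 1 to 4. Its controls spread around the mutant libraries (ratio interval 0.642 to 1.18; adjusted p = 0.547 by edgeR). Ccl28, a mucosal ligand of CCR10 that epithelium makes, had 2.07, 1.25, 1.12 and 0.725 CPM in mutant libraries 1 to 4, against 0.289, 0.207, 1.23 and 0.307 CPM in controls 1 to 4. Control 3 was the only control within the mutant range, and without it Ccl28 was called. The other members of these groups, Ccl19, Ccl25 and Ccl27a, had log2 fold changes of 0.10, 0.15 and -0.04. At an unadjusted p under 0.05, Ccl21a and Ccl28 were higher, and DESeq2 and limma-voom called none of the 6.

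The 4 atypical receptors that the naming rule chose gave 0 calls. Ackr2, a scavenger of inflammatory CC ligands, had 67.8, 65, 65.9 and 49 CPM in mutant libraries 1 to 4, against 65.6, 99.1, 108 and 58.9 CPM in controls 1 to 4. Controls 2 and 3 were well above the mutant libraries and controls 1 and 4 were among them (ratio interval 0.548 to 1.02; adjusted p = 0.224 by edgeR). Ackr3, which takes up Cxcl12, had 80.4, 79.3, 97.9 and 82.5 CPM in mutant libraries 1 to 4, against 96.5, 80.8, 79.9 and 103 CPM in controls 1 to 4, with overlapping groups (ratio interval 0.801 to 1.11; adjusted p = 0.652 by edgeR). Ackr1, which carries chemokines across venules, had 2.13, 2.67, 1.74 and 1.22 CPM in mutant libraries and 1.69, 0.895, 0.47 and 0.82 CPM in controls (log2 fold change 0.97; adjusted p = 0.145 by edgeR). Ackr4, a scavenger of Ccl19 and Ccl21, had 1.55, 2.73, 4.2 and 4.39 CPM in mutant libraries and 2.46, 7.44, 5.47 and 9.84 CPM in controls (log2 fold change -0.96; adjusted p = 0.203 by edgeR). In the annotation, 25.7% of the exon length of Ackr1 overlaps Cadm3 and 8.9% of that of Ackr4 overlaps Acad11, where reads were not counted. At an unadjusted p under 0.05, 1 of the 4, Ackr1, was higher and 0 were lower. DESeq2 called none, and limma-voom called 1 higher and 2 lower.

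The 5 members not tested were at or near the floor. Ccl26 and Ccl27b had 0 counts in all libraries, Ccl21b had at most 1 count in any library and Ccl1 at most 3. Xcl1, a ligand of NK and T cells, had 0.23 to 0.28 CPM in mutant libraries and 0.118 to 0.674 CPM in controls. Ccl21b and Ccl27b have near-identical copies, Ccl21a and Ccl27a, with which they share reads, so their low counts say little about their RNA.

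**Figure D2:**
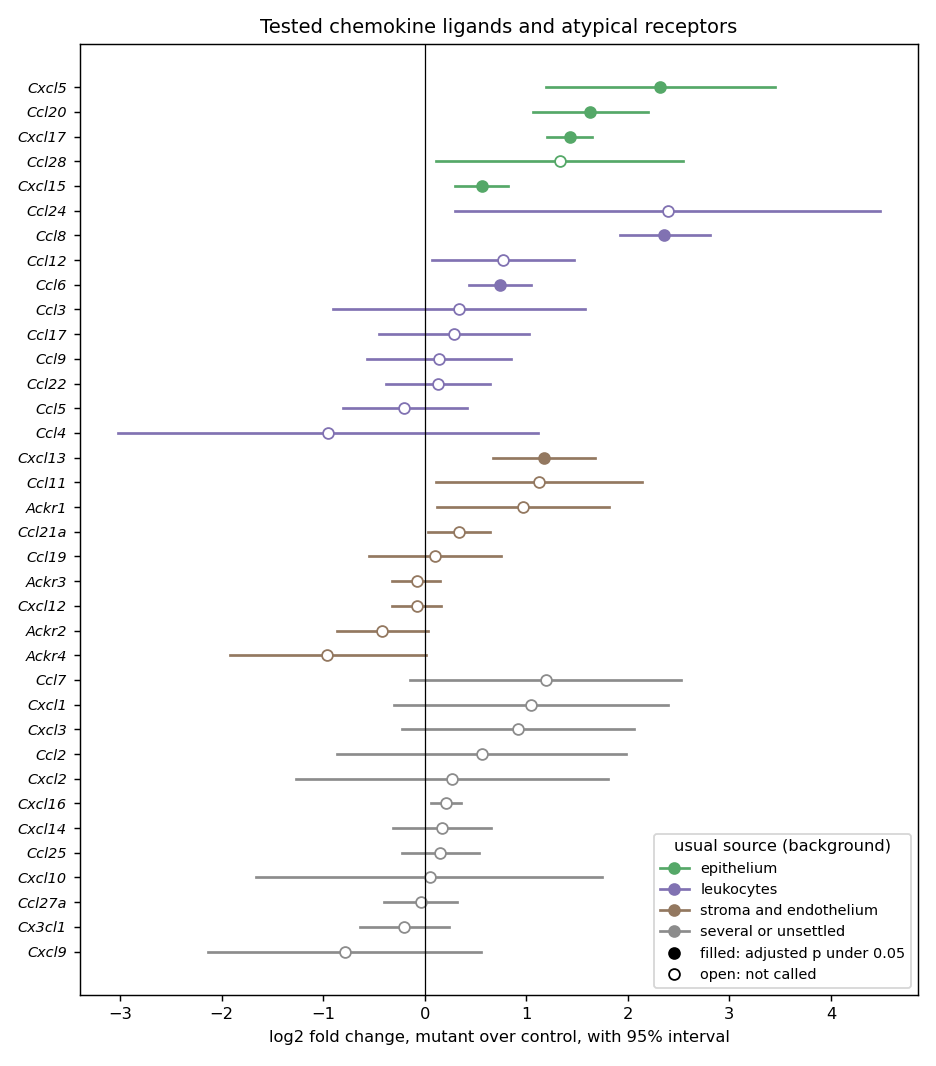
Log2 fold change, mutant over control, of the 36 tested genes with its 95% interval, grouped by the usual source of each gene. The classes come from general knowledge and were set after the values were seen. Filled points passed an adjusted p of 0.05. The 7 filled points all lie right of 0, and 4 of them are in the epithelial group.

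The 41 genes were set in 4 classes by the cells that usually make them, from general knowledge and after their values had been seen, so the classes are a description with no test. Of 5 ligands set in the epithelial class, 4 rose, namely Cxcl15, Cxcl17, Cxcl5 and Ccl20, and Ccl28 was not called. The median log2 fold change was 1.43. Cxcl14 and Cx3cl1, named above as ligands of epithelium and other cells, stood outside this class, with log2 fold changes of 0.17 and -0.20. So did the mucosal and skin ligands Ccl25 (0.15) and Ccl27a (-0.04). None of these was called, so the class median depends on the choice of genes. Of 10 tested ligands usually made by leukocytes, 2 rose, Ccl6 and Ccl8, with a median of 0.31. Of 9 tested genes of stroma and endothelium, 1 rose, Cxcl13, with a median of 0.10. Of 12 genes with several or unsettled sources, 0 were called, with a median of 0.19. In this last class, 1 gene was higher at an unadjusted p under 0.05, DESeq2 called 1 and limma-voom 7. By summed level, the epithelial class lay at 1521 to 1613 CPM in mutant libraries and 824.7 to 1179 CPM in controls, mostly Cxcl15. Markers of single epithelial cell types moved in different directions, while over all genes 5.45% rose and 2.36% fell. Goblet markers, of which 6 of 7 rose, were summed at 646.2 to 1042 CPM in mutant libraries and 134.7 to 256.5 CPM in controls. Ciliated markers, of which 7 of 10 rose, were summed at 858.4 to 1134 CPM in mutant libraries and 632.6 to 814.2 CPM in controls. Club cell markers, of which 7 of 10 fell, were summed at 8952 to 11270 CPM in mutant libraries and 25730 to 28270 CPM in controls. Alveolar type II markers, of which 1 of 10 rose, overlapped, at 26750 to 33230 CPM in mutant libraries and 23780 to 33770 CPM in controls. Alveolar type I markers, of which 1 of 8 fell, also overlapped, at 6204 to 6304 CPM in mutant libraries and 6275 to 7939 CPM in controls. The part of these cell types in the ligands' rise was not tested. The leukocyte class lay at 283.8 to 347.6 CPM in mutant libraries and 171.4 to 267.2 CPM in controls, with Ccl6 as its most abundant gene.

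Since bulk counts mix cell types, each called ligand was also expressed per 1000 counts of a marker list in the same library. Epcam, a marker of epithelium, had 111, 106, 98.1 and 96 CPM in mutant libraries, against 57.8, 73.7, 66.5 and 70.6 CPM in controls, and rose 1.53-fold (adjusted p = 0.00299 by edgeR). Of 12 epithelial markers, 6 rose and 0 fell, against 5.45% and 2.36% of all genes. The list was not uniform, with ratios from 0.754 for Prss8 to 2.79 for Elf3. Prss8 was lower in mutant libraries without overlap but not called (adjusted p = 0.0636 by edgeR). DESeq2 and limma-voom each called 6 of the 12 higher and 1 lower. Of 16 macrophage markers, 5 rose (Chil3, Mrc1, Cd68, Cd14 and C1qc) and 1 fell (Ear1). Chil3, a secreted lectin of alveolar macrophages, made up 40.8% to 50.2% of the macrophage sum in mutant libraries and 24.2% to 39.9% in controls. Without it the sum was 799.6, 826.7, 753 and 888.9 CPM in mutant libraries 1 to 4, against 849.6, 648.3, 635.3 and 649.6 CPM in controls 1 to 4, so that control 1 lay above 3 of the mutant libraries. Of 10 pan-leukocyte markers 0 were called, also at an unadjusted p under 0.05 and by DESeq2, while limma-voom called 2 higher. Ptprc, the common leukocyte antigen, had 99.4, 93.8, 114 and 93.2 CPM in mutant libraries, against 204, 75.6, 64.1 and 101 CPM in controls.

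**Figure D3:**
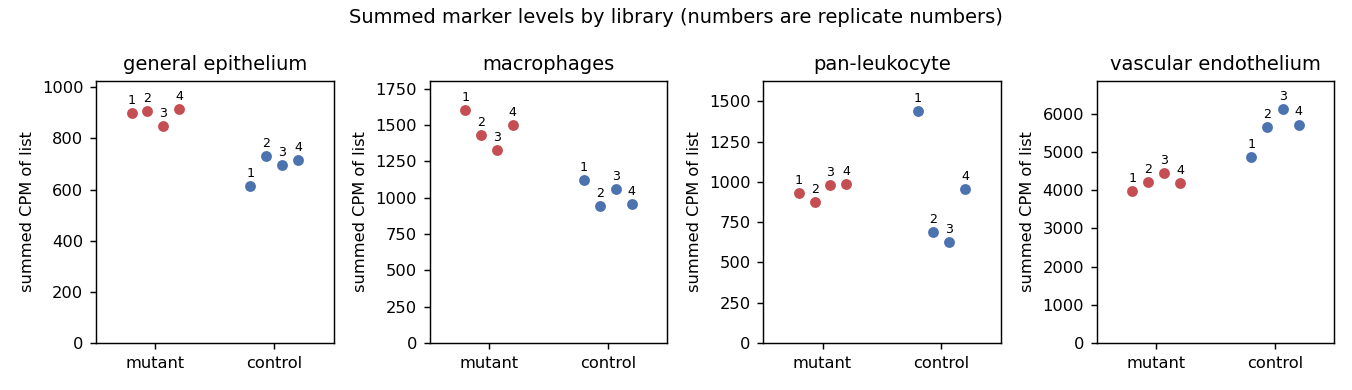
Summed CPM of the marker lists of epithelium, macrophages, all leukocytes and vascular endothelium in each library, mutant libraries left of controls, with replicate numbers. The epithelial and macrophage sums of the mutant libraries lie above all controls, the endothelial sums below them, and the pan-leukocyte sum is highest in control 1 (1438 CPM).

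Per epithelial marker count, 5 of the 7 called ligands still did not overlap between groups, against 2.67% of all genes above and 45.6% below on this scale. For Ccl6 the margin was narrow, with the lowest mutant library at 201 per 1000 and the highest control at 198. Cxcl17 stood at 132 ± 11.1 per 1000 epithelial counts in mutant libraries and 63.6 ± 3.98 in controls (SD, n = 4 each), a log2 difference of 1.05. Ccl20 stood at 4.34 ± 1.34 in mutant libraries and 1.8 ± 0.249 in controls. Cxcl15 overlapped, at 1620 ± 111 in mutant libraries and 1420 ± 164 in controls, a log2 difference of 0.19 in place of 0.56. Cxcl5 overlapped as well, at 4.61 ± 2.73 in mutant libraries and 1.2 ± 0.544 in controls. The summed epithelial markers thus moved with Cxcl15, and their part in its rise was not tested.

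Per macrophage marker count, 4 of the 7 did not overlap with mutant libraries above, namely Ccl20, Ccl8, Cxcl13 and Cxcl17, against 1.78% of all genes above and 53.9% below. Ccl8 had 12.9, 11.7, 12.5 and 7.63 counts per 1000 macrophage counts in mutant libraries 1 to 4, against 2.97, 4.03, 2.89 and 2.72 in controls 1 to 4. The groups stayed apart, with means of 11.2 ± 2.43 in mutant libraries and 3.15 ± 0.591 in controls and a log2 difference of 1.81. Ccl6 overlapped, at 132 ± 13.1 in mutant libraries and 115 ± 24.4 in controls, a log2 difference of 0.22 in place of 0.74. That overlap depended on Chil3. A scale of the other 15 macrophage markers was added after the data were seen. Per 1000 of these counts, Ccl6 stood at 236 ± 13.2 in mutant libraries and 171 ± 46.6 in controls, a log2 difference of 0.51. The groups did not overlap, but only just, with the lowest mutant library at 220 and the highest control at 216. On the scale without Chil3, 5 of the 7 did not overlap, against 3.86% of all genes above and 7.87% below, and Cxcl15 and Cxcl5 overlapped. The part of macrophages in the rise of Ccl6 was not tested. Cxcl13 stood at 5.85 ± 0.658 per 1000 counts of all macrophage markers in mutant libraries and 3.77 ± 1.18 in controls. Its margin was narrow, with the lowest mutant library at 5.36 and the highest control at 5.27.

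Per pan-leukocyte count, the same 4 did not overlap, against 5.26% of all genes above and 0.979% below, and Ccl6, Cxcl15 and Cxcl5 overlapped. Ccl8 stood at 17.5 ± 4.51 per 1000 pan-leukocyte counts in mutant libraries and 3.86 ± 1.57 in controls. Among the 29 tested genes without a call, Ccl7 and Ccl12 did not overlap on this scale, with mutant libraries above. On the epithelial scale 3 of the 29, Ackr2, Ccl27a and Cxcl12, did not overlap with mutant libraries below, against 45.6% of all genes. On the macrophage scale 4 of the 29, Ackr2, Ackr3, Cxcl12 and Cxcl16, did not, against 53.9% of all genes. The summed markers of both scales were themselves higher in mutant libraries, so these genes are not read as falling.

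**Figure D4:**
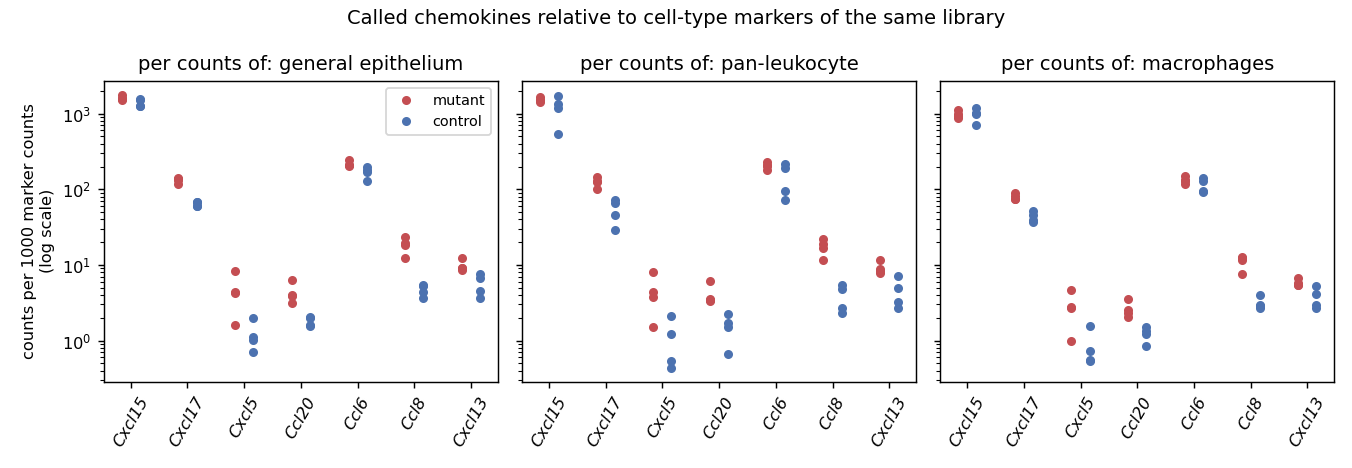
Counts of the 7 called ligands per 1000 counts of epithelial, pan-leukocyte and macrophage markers of the same library, on a log scale, mutant libraries left of controls. Cxcl17, Ccl20, Ccl8 and Cxcl13 have all mutant points above all control points in each panel, while Cxcl15 and Cxcl5 overlap in each and Ccl6 overlaps on the leukocyte and macrophage scales.

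The controls differed among themselves in the inducible ligands, and also over all genes. Pairs of controls differed by a chi-square of 4.89 to 46.2 per gene, and pairs of mutant libraries by 6.2 to 12.9. The spread was thus not limited to these ligands. Over the 36 tested genes, the median coefficient of variation was 21% in mutant libraries and 41% in controls, and 27 genes varied more in controls. Control 1 held the highest control value for 20 of the 36 genes, and control 2 or 3, 2 of the 4 controls, the lowest for 21. These counts and the coefficients of variation have no value over all genes beside them, so they are not read as particular to these ligands. Cxcl10, a ligand of CXCR3 induced by interferon, had 9.84, 6.76, 10.9 and 8.47 CPM in mutant libraries 1 to 4, against 26.5, 1.79, 1.88 and 4.05 CPM in controls 1 to 4. Control 1 was above all mutant libraries and the other 3 controls below all of them, and the log2 fold change was 0.05 ± 0.76 (SE). Cxcl9, the other tested ligand of CXCR3, had 3.22, 3, 4.2 and 3.53 CPM in mutant libraries, against 15.8, 3.1, 2.65 and 2.2 CPM in controls. There too control 1 was far above all other libraries. Of these 2 genes, 0 were called, also at an unadjusted p under 0.05 and by DESeq2, and limma-voom called 1 higher.

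The pattern recurred among CC ligands. Ccl4, a ligand from macrophages and lymphocytes, had 2.59, 1.09, 1.51 and 1.72 CPM in mutant libraries, against 10.8, 1.03, 0.176 and 1.02 CPM in controls. Ccl2, the main ligand of CCR2 on monocytes, had 7.54, 5.07, 3.64 and 3.53 CPM in mutant libraries, against 8.86, 1.17, 0.941 and 2.1 CPM in controls. In both genes control 1 exceeded all 7 other libraries. For Ccl7, also a ligand of CCR2, mutant 1 was the highest instead, at 7.94, 4.2, 4.37 and 4.39 CPM in mutant libraries and 5.44, 1.24, 0.353 and 1.9 CPM in controls. The highest control was 61.4 times the lowest for Ccl4, 15.4 times for Ccl7 and 14.8 times for Cxcl10. Control 1 also had the highest pan-leukocyte sum, and the part of leukocytes in these values was not tested.

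Without control 1, 16 members were called higher and 1 lower, against 7 and 0 with all libraries. Over all genes, the same fit called 8.86% higher and 6.52% lower, so calls also became more frequent outside these ligands. Control 1 held the highest control value for 20 of the tested members, so leaving it out lowers their control means. The added calls are therefore no separate support for a rise. Without controls 2 and 3, which stood apart on the first principal component, 6 members were called higher and 1 lower, against 628 and 223 of 17657 genes. The genes gained without control 1 were Ccl2, Ccl3, Ccl7, Ccl12, Cxcl1, Cxcl2, Cxcl10, Cxcl16 and Ackr1, with Ackr4 lower. In that fit Cxcl10 had a log2 fold change of 1.78 (adjusted p = 0.00662), Ccl2 of 1.79 (adjusted p = 0.0142) and Ccl7 of 2.14 (adjusted p = 0.0155), by the edgeR test. With the pan-leukocyte level as a covariate, 11 were called higher, the 7 together with Ccl7, Ccl12, Cxcl10 and Cxcl16, against 9.69% of all genes. Ccl20, Ccl6, Ccl8, Cxcl13 and Cxcl17 were called under all 18 alternatives.

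**Figure D5:**
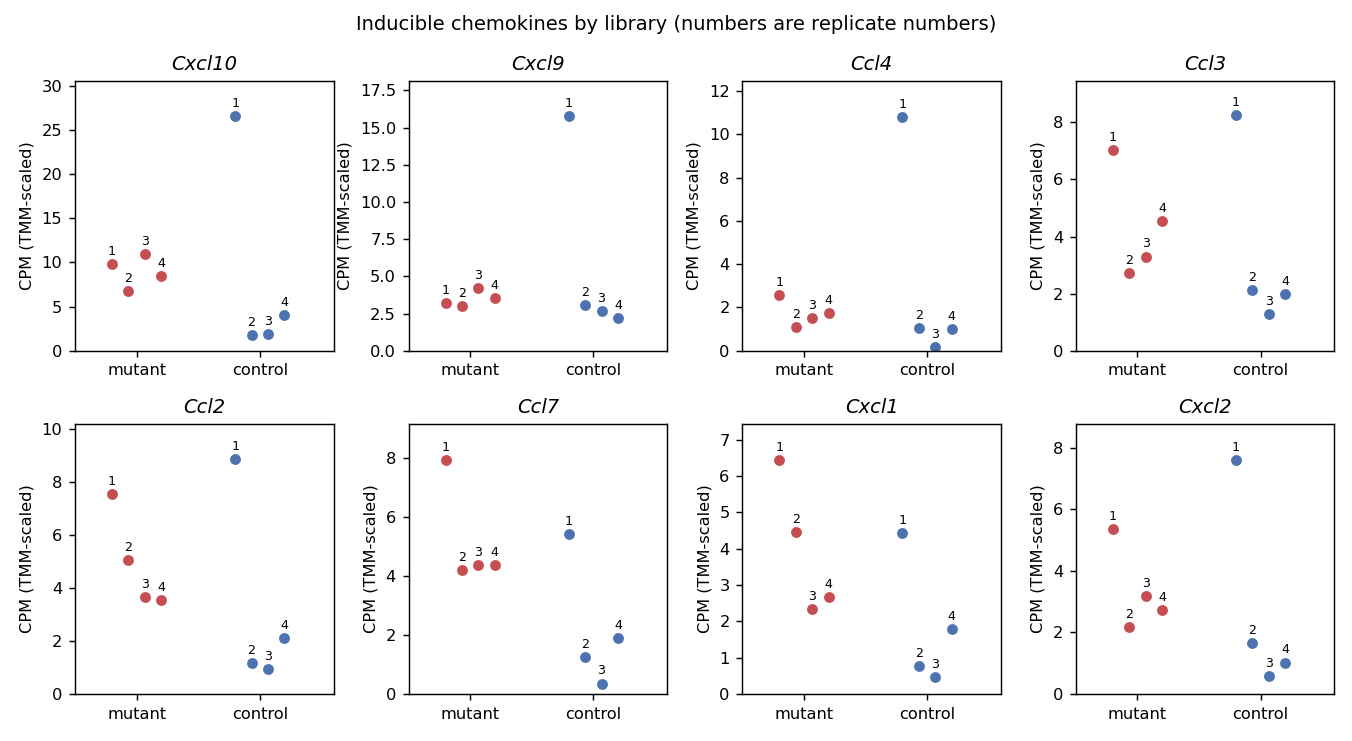
CPM of 8 inducible ligands in each library, mutant libraries left of controls, with replicate numbers beside the points. Control 1 is the highest control in every panel and the highest of all libraries for Cxcl10, Cxcl9, Ccl4, Ccl3, Ccl2 and Cxcl2.

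Several of these genes lie side by side on the GRCm38 genome. Within gaps of at most 500000 bases, Cxcl5, Cxcl3, Cxcl15, Cxcl1 and Cxcl2 form a group on chromosome 5, in which Cxcl5 (90759360 to 90761624) and Cxcl15 (90794534 to 90803067) rose while the 3 others gave no call. Ccl8 (chromosome 11, 82115185 to 82116799) was the single called gene of a group of 6 with Ccl2, Ccl7, Ccl11, Ccl12 and Ccl1. Ccl6 (chromosome 11, 83587882 to 83593087) was the single called gene of a group of 5 with Ccl5, Ccl9, Ccl3 and Ccl4. Neighbouring genes thus differed in their calls, but whether their changes differed was not tested. The uncalled tested neighbours had log2 fold changes from -0.95 (Ccl4) to 1.19 (Ccl7). Ppbp and Pf4, which the naming rule leaves out, lie between Cxcl5 and Cxcl3, and Ppbp was called lower. Ccl20 (chromosome 1, 83116766 to 83119167), Cxcl13 (chromosome 5, 95956951 to 95961068) and Cxcl17 (chromosome 7, 25400053 to 25412886) had no other member within that distance.

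Of 21 listed chemokine receptors outside the naming rule, 19 were tested. Of these, 2 were higher and 2 lower in mutant libraries, against 5.45% and 2.36% of all genes. The list also held Ccrl2 and Gpr182, which are not classical signalling receptors. Ccr1, the receptor of Ccl6 and Ccl9, had 16.2, 14.4, 15.7 and 13.8 CPM in mutant libraries, against 10.5, 6.54, 4.47 and 6.35 CPM in controls, without overlap. It rose 2.15-fold (adjusted p = 0.0156 by edgeR), a call lost without mutant 1 (adjusted p = 0.0576 by edgeR). Cxcr1, a receptor of ELR ligands, was 2.14-fold higher at a low level (2.13, 1.31, 1.4 and 1.22 CPM in mutant libraries, against 0.434, 0.758, 0.823 and 0.82 CPM in controls; adjusted p = 0.0467 by edgeR), and its call was lost without controls 2 and 3 together, without any single mutant library and without control 1, 2 or 3.

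Cxcr4, the receptor of Cxcl12, had 39.6, 37.4, 39.2 and 40.8 CPM in mutant libraries, against 53.9, 68.2, 64.1 and 47.5 CPM in controls. All mutant libraries were below all controls, and Cxcr4 fell 1.49-fold (adjusted p = 0.0127 by edgeR) while Cxcl12 itself was not called. Ccrl2, a non-signalling receptor that presents the attractant chemerin, had 27.6, 29.6, 30.1 and 23.5 CPM in mutant libraries, against 32.8, 59.2, 58.8 and 37.2 CPM in controls. It was 1.7-fold lower (adjusted p = 0.0467 by edgeR), a call lost with no filter on low counts, without any single mutant library, and without control 2 or control 3 or both.

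The receptors of the other called ligands were low and gave no call. Cxcr2, the receptor of Cxcl5, had 6.27, 6.49, 6.67 and 6.16 CPM in mutant libraries, against 5.25, 2.07, 0.647 and 6.15 CPM in controls. The mutant libraries were alike, and controls 2 and 3 were below the others. Ccr6, the receptor of Ccl20, had 2.07, 1.15, 2.35 and 0.77 CPM in mutant libraries, against 1.16, 1.1, 0.647 and 1.08 CPM in controls. Cxcr5, the receptor of Cxcl13, had 3.8, 2.78, 4.99 and 3.26 CPM in mutant libraries, against 2.02, 2.62, 2.23 and 4.2 CPM in controls. Ccr8, the receptor of mouse Ccl8, had 1.73, 1.8, 1.29 and 0.906 CPM in mutant libraries, against 1.4, 0.895, 0.941 and 1.69 CPM in controls. For Ccr6, Cxcr5 and Ccr8 the groups overlapped, and for Cxcr2 the lowest mutant library (6.16 CPM) was just above control 4 (6.15 CPM).

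Of 11 tested cytokines that induce chemokines, from a list of 19, 4 rose and 0 fell, against 5.45% and 2.36% of all genes. The list was written with earlier results of these data known, so the count is a description with no test. Il33, an alarmin of epithelium and endothelium, had 357, 372, 314 and 357 CPM in mutant libraries, against 102, 114, 103 and 102 CPM in controls. It averaged 350 ± 25.2 CPM in mutant libraries and 105 ± 5.99 CPM in controls (SD, n = 4 each), 3.32-fold higher (adjusted p = 3.3e-06 by edgeR). Lif, a cytokine of the IL-6 family, had 32.2, 21.3, 28.7 and 23.6 CPM in mutant libraries, against 8.14, 3.86, 3.59 and 6.46 CPM in controls, and rose 4.74-fold (adjusted p = 0.00105 by edgeR). Osm, of the same family, had 11.2, 6.27, 8.07 and 8.24 CPM in mutant libraries, against 4.48, 3.38, 3.94 and 3.18 CPM in controls, and rose 2.25-fold (adjusted p = 0.00721 by edgeR). In all 3 genes the groups did not overlap. Il6 had 1.67, 0.981, 1.51 and 2.17 CPM in mutant libraries, against 0.674, 0.0689, 0 and 0.307 CPM in controls, where it was near the floor. It rose 5.49-fold (adjusted p = 0.0408 by edgeR), a call lost with no filter on low counts, without any single mutant library, without control 2 or 4, and without controls 2 and 3 together. Of 14 NF-kB subunits and feedback genes 0 were called. At an unadjusted p under 0.05, 1 was higher and 1 lower, DESeq2 called 1 lower, and limma-voom called 6 higher and 1 lower. Of 9 tested genes that process or display chemokines, 1 rose, Sdc1, a heparan sulfate proteoglycan of epithelium. It had 409, 425, 400 and 418 CPM in mutant libraries, against 274, 350, 329 and 321 CPM in controls, and was 1.3-fold higher (adjusted p = 0.0268 by edgeR), a call lost with the GC trend removed, without any single mutant library and without control 3.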

How the data were processed

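The authors deposited raw gene counts for the 8 libraries. Read pairs were counted, per the file headers, with featureCounts 1.6.2 against GENCODE M25, without strand, multi-mapping reads or reads over several genes, so antisense genes are not told apart from their partners and close paralogs lose common reads. Other tools named in the submitters' processing notes are STAR, Bowtie2 and Cufflinks, with builds GRCm38 and mm10. The labels name both a stranded mRNA kit and TruSeq V2, and the kit of each library is not given in the sources used here. Gene length is a column of the authors' deposited table and was used for FPKM.

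Symbols came from GENCODE M21 (99.53% of identifiers matched). Genes passing filterByExpr (minimum count 10, minimum total 15) were scaled with TMM and compared with edgeR 4.0.16 (robust quasi-likelihood test, R 4.3.3), with Benjamini-Hochberg adjustment over all 16964 genes and a threshold of 0.05. CPM uses TMM-scaled library sizes. Within groups, libraries differed by a chi-square of 4.89 to 46.2 per gene, more than sampling noise, and each was counted once. Alternatives were other scaling, no filter, GC correction, DESeq2 1.42.0, limma-voom (limma 3.58.1), a replicate block, a leukocyte covariate and left-out libraries. Values in every library are given for each member called or with a mean of at least 20 CPM in a group, and for the called members of the pathway lists reported. Ccl24, Ccl11, Ccl28, Ackr1, Ackr4 and the variable ligands were added after their values were seen. The members, lists and marker genes were chosen with earlier results of these data known. Results of 1 further pathway list are not reported here.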

Additional observations from a re-analysis of the deposited data

Results flagged for a closer look

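In 12 of 132 groups of 4 libraries checked, 1 library stood apart from the other 3 by more than Dixon's 95% critical value for 4 samples, which chance exceeds in about 1 of 20 groups. Among the ligands, control 1 stood high for Ccl17 (26.9 CPM, the other controls 12.1 to 13.5) and for Cxcl9 (15.8 CPM, the others 2.2 to 3.1). Control 3 stood high for Ccl28 (1.23 CPM, the others 0.207 to 0.307). Mutant 1 stood high for Ccl7 (7.94 CPM, the other mutant libraries 4.2 to 4.39) and for Ccl12 (3.8 CPM, the others 2.41 to 2.51). Mutant 4 stood low for Ackr2 (49 CPM, the others 65 to 67.8).

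Among the receptors and cytokines, control 1 stood high for Ccr2, the monocyte receptor of Ccl2 (42.4 CPM, the other controls 27.6 to 29.6), and low for Cxcr1 (0.434 CPM, the others 0.758 to 0.823). Control 3 stood low for Ccr6 (0.647 CPM, the others 1.08 to 1.16) and high for Cxcr6, the receptor of Cxcl16 (6.64 CPM, the others 6.02 to 6.1). Control 4 stood low for Gpr182, an endothelial scavenger of chemokines (63.4 CPM, the others 71.7 to 72.9), and control 2 high for Il33 (114 CPM, the others 102 to 103).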

How the results depend on the processing

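Of 648 recomputed fold changes of members, 611 kept their direction and side of the threshold, 8 lost a call, 29 gained one and 0 reversed. Limma-voom called 16 members higher and 2 lower, and over all genes 2790 and 2387. The pan-leukocyte covariate gave 11 members higher, and 1644 higher and 1017 lower over all genes. DESeq2 called 939 genes lower. Without controls 2 and 3, 1 member was lower (Ccl5), 1 receptor higher and 1 lower, and 223 genes lower. With no filter, 1 receptor was lower. Leaving out 1 library at a time gave 5 to 16 members higher (5 without mutant 1 or 2, 16 without control 1), 0 to 1 lower, 0 to 2 receptors higher and 1 to 2 lower, and 515 to 1517 genes higher and 146 to 1117 lower. Deviations of same-numbered libraries correlated at 0.00656, 0.129, -0.123 and 0.134 for numbers 1 to 4, and only number 4 correlated best with its own number, so the libraries share only a number. With the replicate block, 7 members were higher and 1 lower (Ackr4), 1 receptor was higher (Ccr1, with the call of Cxcr1 lost), and 865 genes were higher and 371 lower. With the replicate block and the GC trend removed, 1 receptor was higher, and 837 genes were higher and 450 lower. The cause of these differences was not tested. Of 196 marker ratios recomputed, 8 moved by more than the spread, 3 of them (Ccl6, Cxcl15 and Cxcl17) on leaving Chil3 out of the macrophage markers, which was chosen after seeing the data. Ligands under about 1 CPM in controls rest on few counts.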

Other observations

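The platelet chemokines, which the naming rule leaves out, went the other way from the 7 called ligands or gave no call. Ppbp, the precursor of a CXCR2 ligand stored in platelets, averaged 5.04 ± 0.563 CPM in mutant libraries and 9.44 ± 1.41 CPM in controls (SD, n = 4 each), 1.87-fold lower (adjusted p = 0.00664, edgeR). Pf4, platelet factor 4, was not called (adjusted p = 0.479, edgeR). Of 4 tested platelet markers, 2 fell and 0 rose, against 2.36% and 5.45% of all genes. The 2 were low, with means of 1.88 CPM (Gp9) and 0.49 CPM (Treml1) in mutant libraries and 3.57 and 1.18 CPM in controls. The summed levels overlapped, at 14.85 to 20.84 CPM in mutant libraries and 19.37 to 25.87 CPM in controls.

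Cxcl11, the remaining ligand of CXCR3 and annotated as a polymorphic pseudogene, had 4, 1, 2 and 1 counts in mutant libraries 1 to 4 and 12, 2, 1 and 1 counts in controls 1 to 4, so that control 1 was the highest library here as well.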
